A study of Mus musculus with 16 samples.

Results

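The genes described here encode protein phosphatases and kinases of the MAP kinase cascade, measured in eosinophils of the mouse duodenum in the morning and in the evening. A gene belongs if its symbol begins with Ppp1 to Ppp6, Ppm1, Ptpn with a number, Ptpr, Ptp4a, Dusp with a number, Mapk, Map2k, Map3k, Map4k or Rps6k. The rule took 25 of the 1340 genes listed for CD11c-low cells and 4 of the 172 listed for CD11c-high cells. All 4 were also among the 25, so 25 of the 1413 genes in either table were members. By the same symbols, 216 protein-coding genes of the mouse annotation (GENCODE M21) qualify. The other members are in neither table and were not analysed here.

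The 16 libraries form 4 groups of 4, namely CD11c-high and CD11c-low eosinophils of the duodenal lamina propria at zeitgeber time (ZT, counted in hours from lights on) 3, called AM, and at ZT 15, called PM. CD11c is the integrin alpha chain encoded by Itgax, and its surface level separates the sorted subsets. Each library was made from polyadenylated RNA of 1000 sorted cells. No treatment beyond the time of collection is named, and no strain, sex or age is given. Whether the libraries of a group came from different mice, and whether both subsets came from the same mice, is not given either, so the spread behind the errors and s-values below may be technical rather than between mice.

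The tables hold one comparison per subset and no value of a single library. Each gene has a mean normalised count over the libraries, a log2 fold change of ZT15 over ZT3 with its posterior standard deviation (SD), and an s-value, which estimates how many signs are wrong, as a share, among the genes at least as well supported. The fold changes are shrunken towards 0, and only genes with an s-value under 0.05 are listed. Every change below is on that shrunken log2 scale, printed ± its posterior SD. A false sign rate of each gene alone was recovered from the s-values. It was under 0.05 for 15 of the 25 members in CD11c-low cells, against 52.7% of that table, and summed to 1.07 over the 25, the number of directions expected to be wrong. The depth of single libraries is unknown, and a drop in the share of cells that express a gene and a drop in RNA per cell cannot be told apart in bulk samples.

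Protein phosphatases remove the phosphate groups that kinases add. Most serine and threonine phosphatases of the PPP family pair a catalytic subunit with a regulatory subunit that picks the substrate, whereas the metal-dependent PPM enzymes act as single chains. Calcineurin, a PPP enzyme switched on by calcium and calmodulin, dephosphorylates the NFAT transcription factors. Tyrosine phosphatases either span the membrane, as CD45 does on all white blood cells, or act inside the cell, where several of them oppose signals of cytokine and antigen receptors. In the MAP kinase cascade a MAP3 kinase activates a MAP2 kinase, which activates a MAP kinase (ERK, JNK or p38), and dual-specificity phosphatases switch the MAP kinases off. In eosinophils these cascades act downstream of the interleukin-5 receptor family, chemokine receptors and receptors with inhibitory tyrosine motifs.

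Promoters are shown for the 4 genes listed in both subsets (Ptpn1, Dusp6, Ppp6c and Ppp1cb), for Ppp2ca and Ppm1a, the members with a cyclic AMP response element, and for Ppm1h, the paralogue of Ppm1a that changed in the opposite direction. Each sequence is the 250 bases before the RefSeq start site (build GRCm38.p6), 5′ to 3′ on the gene's strand, and capitals mark matches to any of the 8 motifs searched; Ppp6c and Ppm1h hold none.
Ptpn1 (chr2:167932077-167932326, + strand): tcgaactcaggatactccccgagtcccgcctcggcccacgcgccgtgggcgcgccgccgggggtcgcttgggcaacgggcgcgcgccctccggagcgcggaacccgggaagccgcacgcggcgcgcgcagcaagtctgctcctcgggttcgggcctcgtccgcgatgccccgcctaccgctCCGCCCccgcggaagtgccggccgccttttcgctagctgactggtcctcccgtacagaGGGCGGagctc
Dusp6 (chr10:99262981-99263230, + strand): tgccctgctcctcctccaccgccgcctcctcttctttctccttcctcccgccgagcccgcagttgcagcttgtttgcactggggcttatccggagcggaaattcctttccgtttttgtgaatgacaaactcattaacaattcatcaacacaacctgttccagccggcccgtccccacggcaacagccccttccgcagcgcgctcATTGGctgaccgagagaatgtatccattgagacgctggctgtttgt
Ppp6c (chr2:39226350-39226599, - strand): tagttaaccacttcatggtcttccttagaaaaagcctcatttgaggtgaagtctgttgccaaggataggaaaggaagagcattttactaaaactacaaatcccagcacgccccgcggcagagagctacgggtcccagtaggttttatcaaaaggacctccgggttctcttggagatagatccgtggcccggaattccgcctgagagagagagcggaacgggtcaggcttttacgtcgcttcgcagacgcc
Ppp1cb (chr5:32458720-32458969, + strand): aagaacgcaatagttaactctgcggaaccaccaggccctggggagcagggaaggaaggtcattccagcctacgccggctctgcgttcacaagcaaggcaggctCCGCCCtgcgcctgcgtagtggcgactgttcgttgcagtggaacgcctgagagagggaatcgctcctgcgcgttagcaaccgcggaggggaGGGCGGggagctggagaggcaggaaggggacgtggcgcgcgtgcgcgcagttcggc
Ppm1a (chr12:72760961-72761210, + strand): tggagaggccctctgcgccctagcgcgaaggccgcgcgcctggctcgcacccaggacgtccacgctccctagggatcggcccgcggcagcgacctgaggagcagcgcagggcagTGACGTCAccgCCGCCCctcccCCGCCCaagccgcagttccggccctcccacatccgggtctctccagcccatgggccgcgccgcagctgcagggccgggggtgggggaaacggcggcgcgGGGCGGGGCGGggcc
Ppp2ca (chr11:52098574-52098823, + strand): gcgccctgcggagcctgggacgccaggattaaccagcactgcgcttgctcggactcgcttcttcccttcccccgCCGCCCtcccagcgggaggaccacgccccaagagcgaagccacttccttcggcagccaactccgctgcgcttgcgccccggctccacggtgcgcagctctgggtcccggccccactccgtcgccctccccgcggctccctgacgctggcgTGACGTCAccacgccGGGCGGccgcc
Ppm1h (chr10:122678512-122678761, + strand): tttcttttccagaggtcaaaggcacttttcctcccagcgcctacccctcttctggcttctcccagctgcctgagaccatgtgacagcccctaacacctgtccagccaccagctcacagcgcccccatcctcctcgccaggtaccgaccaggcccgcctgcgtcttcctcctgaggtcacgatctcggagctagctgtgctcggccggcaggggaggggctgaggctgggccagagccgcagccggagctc

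The motifs were searched on both strands and overlapping matches were kept. They were the cyclic AMP response element (CRE, TGACGTCA), the clock motifs E-box (CACGTG), D-box (TTATGTAA) and the core of the ROR element (TAGGTCA), the AP-1 site (TGANTCA), an ETS site (CCGGAAG), the GC box (GGGCGG) and the CCAAT box (CCAAT). RefSeq promoters matched 23 of the 25 members by symbol, all except Ppp3ca and Ptpn12. The full CRE occurred in 2 of the 23, beginning 136 bases before the start of Ppm1a and 26 bases before that of Ppp2ca. It occurred in 3.56% of the 1011 matched genes of the CD11c-low table and in 1.77% of all 27025 genes with a promoter. GC boxes were found in 16 of the 23 members (69.6%), against 64.9% of the matched genes of that table, and CCAAT boxes in 8 members (34.8%), against 40.5%. None of the 23 held the E-box, D-box or ROR letters in this window, which the matched genes of the table held in 11.3%, 0.396% and 1.98% of cases. AP-1 letters were found in Ptpre (4.35% of the 23, against 6.63% of the matched genes of the table). ETS letters were found in Ppp4c and Rps6kc1 (8.70%, against 18.1%). A gene was counted if any of its promoters held the letters, and the 23 members had 32 promoters. A match describes letters in the window and was not tested for binding.

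In CD11c-low eosinophils 14 members were lower and 11 higher at ZT15, and the classes leaned in different directions. Serine and threonine phosphatase transcripts were mostly lower (9 of 12), and tyrosine phosphatase transcripts were mostly higher (6 of 7). Of all 1340 genes listed there, 52.2% were higher and 47.8% lower. Beside these, 75% of the listed serine and threonine phosphatases were lower and 85.7% of the tyrosine phosphatases were higher. The MAP kinase cascade had 3 lower and 2 higher genes, and the single listed Dusp gene was lower. Classes were set by gene symbol, so the dual-specificity class holds Dusp genes only and Ptp4a2 counts among the tyrosine phosphatases. In the authors' deposited table, the median change was -0.36 over the 12 serine and threonine phosphatases, 0.34 over the 7 tyrosine phosphatases and -0.33 over the 5 cascade genes, against 0.21 over all listed genes. Only called genes are listed, so values near 0 are missing and each median falls on the side with more genes. The medians therefore restate the counts. Whether a class differs from the rest of the table was not tested. The members' changes were of ordinary size for the table, with a median size of 0.34 against 0.37 over all its genes.

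**Figure D1:**
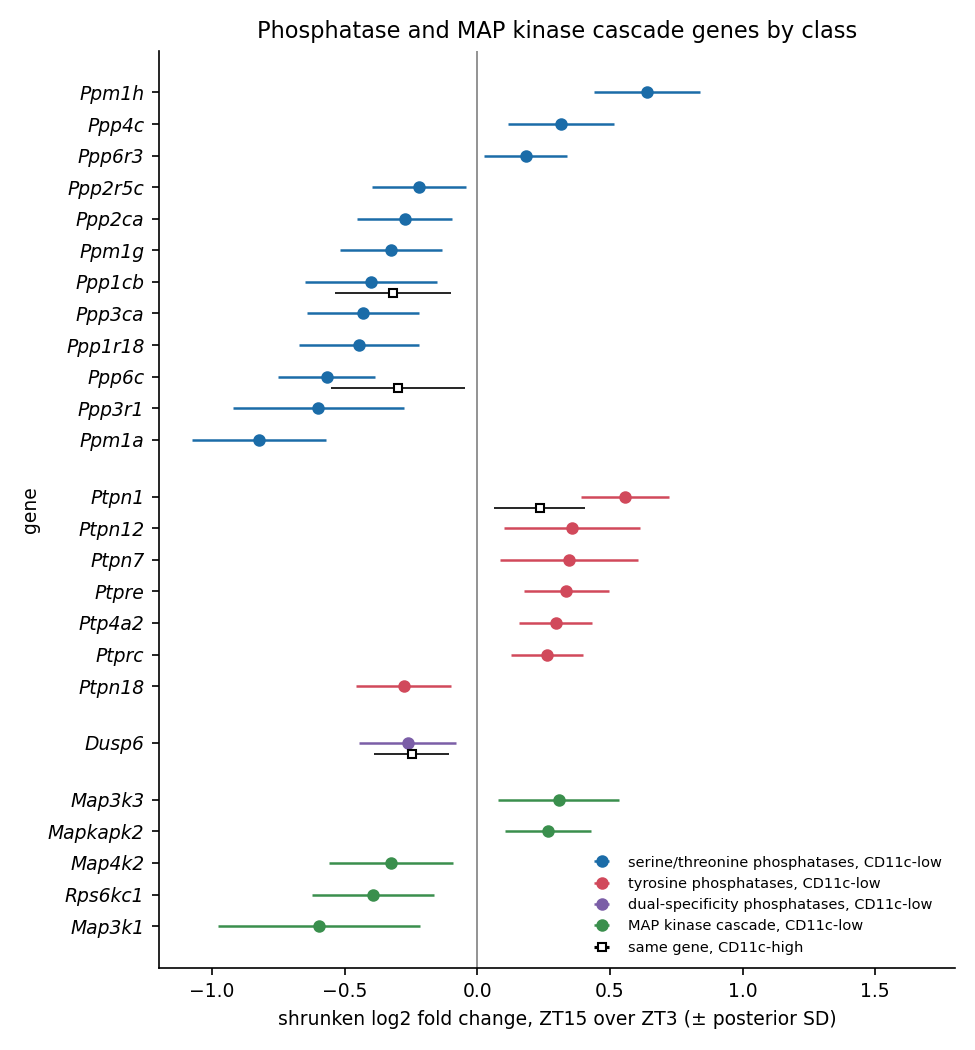
Shrunken log2 fold change (ZT15 over ZT3, horizontal axis) of the 25 listed genes (vertical axis), coloured by class; filled circles are CD11c-low values, open squares CD11c-high values of the 4 genes listed there, and bars are 1 posterior SD. The serine and threonine phosphatases run from -0.82 (Ppm1a) to 0.64 (Ppm1h), and 6 of the 7 tyrosine phosphatases lie to the right of 0.

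**Figure D2:**
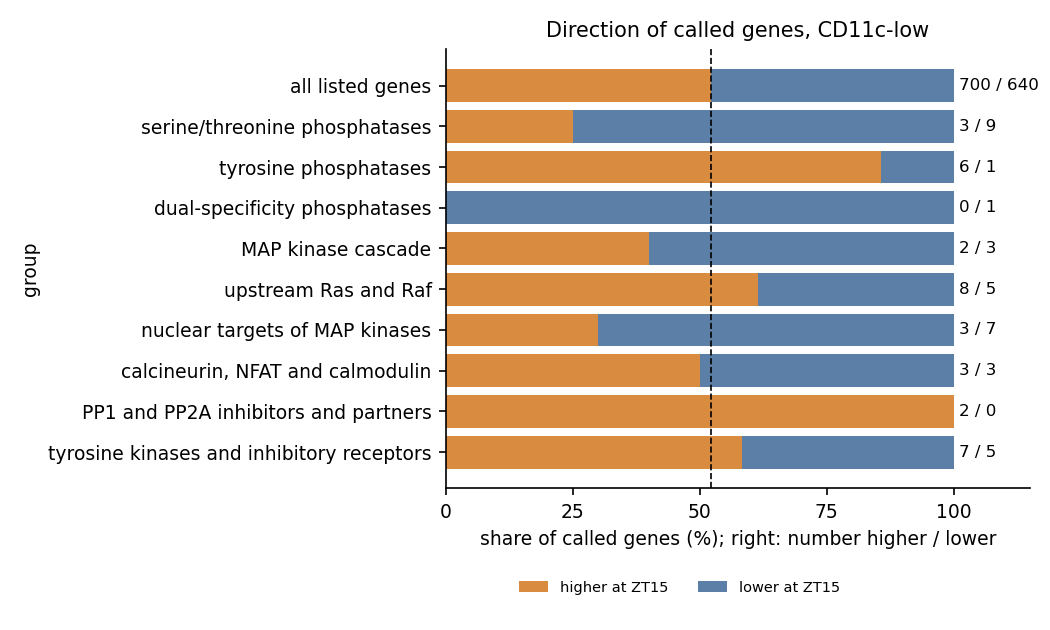
Share of called genes that were higher (orange) or lower (blue) at ZT15 in CD11c-low cells, in percent, with the numbers higher and lower at the right; the dashed line is the 52.2% of all listed genes. Serine and threonine phosphatases lie below the line with 3 of 12 higher and tyrosine phosphatases above it with 6 of 7.

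Among the catalytic subunits of the PPP family, 4 of the 5 listed were lower at ZT15, beside 47.8% of all listed genes. The difference was not tested. Ppp6c (ENSMUSG00000026753.6), the catalytic subunit of protein phosphatase 6, changed by -0.57 ± 0.18 in the authors' deposited table (s-value 0.000139, mean normalised count 435), a fall to 0.675 of its ZT3 level. It ranked 108 of 1340 by s-value. Ppp3ca (ENSMUSG00000028161.18), the alpha catalytic chain of calcineurin, changed by -0.43 ± 0.21 in the authors' deposited table (s-value 0.00505, mean normalised count 1237). Ppp1cb, the beta catalytic subunit of protein phosphatase 1, fell by 0.40 ± 0.25 in the authors' deposited table (s-value 0.0154, mean normalised count 590). Ppp2ca, the alpha catalytic subunit of protein phosphatase 2A, fell by 0.27 ± 0.18 in the authors' deposited table. Ppp4c, the catalytic subunit of protein phosphatase 4, went against the other 4 and rose by 0.31 ± 0.20 in the authors' deposited table (s-value 0.0188, mean normalised count 649).

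Of the regulatory subunits 3 of 4 were lower, beside 47.8% of all listed genes, which is too few genes to show a lean. Ppp3r1 (ENSMUSG00000033953.11), the calcium-binding subunit of calcineurin, fell by 0.60 ± 0.32 in the authors' deposited table (s-value 0.00710), with the lowest mean normalised count of the members, 103. Both listed calcineurin genes, the catalytic and the calcium-binding subunit, were therefore lower at ZT15. Ppp1r18, which encodes phostensin, an actin-binding partner of protein phosphatase 1, fell by 0.45 ± 0.23 in the authors' deposited table. Ppp2r5c, a B56-type targeting subunit of protein phosphatase 2A, changed least among the lower members, by -0.22 ± 0.18 in the authors' deposited table (s-value 0.0411). Ppp6r3, a regulatory partner of Ppp6c, was the exception, with 0.18 ± 0.15 in the authors' deposited table. Its s-value of 0.0484 was the closest of all members to the limit of listing.

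The metal-dependent phosphatases held the extremes of all 25 members. Ppm1a (ENSMUSG00000021096.12), which can dephosphorylate p38 and JNK as well as receptor-activated SMAD proteins, had the largest fall, -0.82 ± 0.25 in the authors' deposited table (s-value 8.25e-05, mean normalised count 198). That is a level at ZT15 of 0.566 of the ZT3 level, and it ranked 30 by size among the 640 lower genes. Ppm1h (ENSMUSG00000034613.13), which removes phosphates from Rab GTPases, had the largest rise, 0.64 ± 0.20 in the authors' deposited table (s-value 0.000107, mean normalised count 458), or 1.56-fold. The 95% intervals, taken as normal from the change and its SD, excluded 0 for both. They ran from -1.32 to -0.33 for Ppm1a and from 0.25 to 1.03 for Ppm1h. Ppm1g, a nuclear phosphatase that acts on splicing and chromatin proteins, fell by 0.33 ± 0.19 in the authors' deposited table.

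Tyrosine phosphatase transcripts were led by Ptpn1 (ENSMUSG00000027540.14), which encodes PTP1B, an enzyme of the endoplasmic reticulum surface that acts on the insulin and leptin receptors and on JAK2. It rose by 0.56 ± 0.17 in the authors' deposited table (s-value 4.66e-05, mean normalised count 1296), or 1.47-fold, the smallest s-value of any member and rank 78 of 1340. The receptor types Ptpre (ENSMUSG00000041836.11; 0.34 ± 0.16, s-value 0.00482) and Ptprc, which encodes CD45 (0.26 ± 0.13, s-value 0.00735), both rose in the authors' deposited table. Ptp4a2 (ENSMUSG00000028788.15), a prenylated phosphatase of the PRL group, rose by 0.29 ± 0.14 in the authors' deposited table (s-value 0.00467). Ptprc and Ptp4a2 had the highest mean normalised counts of all members, 6179 and 5073, and the narrowest SDs; counts are not compared as levels between genes, because they are not scaled by length.

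The remaining tyrosine phosphatases were Ptpn12, Ptpn7 and Ptpn18. Ptpn12, also called PTP-PEST, rose by 0.36 ± 0.26 in the authors' deposited table. Ptpn7, a phosphatase of blood cells that acts on ERK and p38, rose by 0.35 ± 0.26 in the authors' deposited table (s-value 0.0307). Ptpn18, which like Ptpn12 belongs to the PEST group, was the only one of the class to fall, with -0.28 ± 0.18 in the authors' deposited table (s-value 0.0200). The 95% normal intervals of these 3 genes and of Ptprc included 0. The own false sign rates of Ptprc and of Ppp3r1, whose interval also included 0, were 0.0232 and 0.0218. Over all members in CD11c-low cells the interval excluded 0 for 8 of 25 (Ppm1a, Ppm1h, Ppp1r18, Ppp3ca, Ppp6c, Ptp4a2, Ptpn1 and Ptpre), against 30.8% of that table, and included it for 17.

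**Figure D3:**
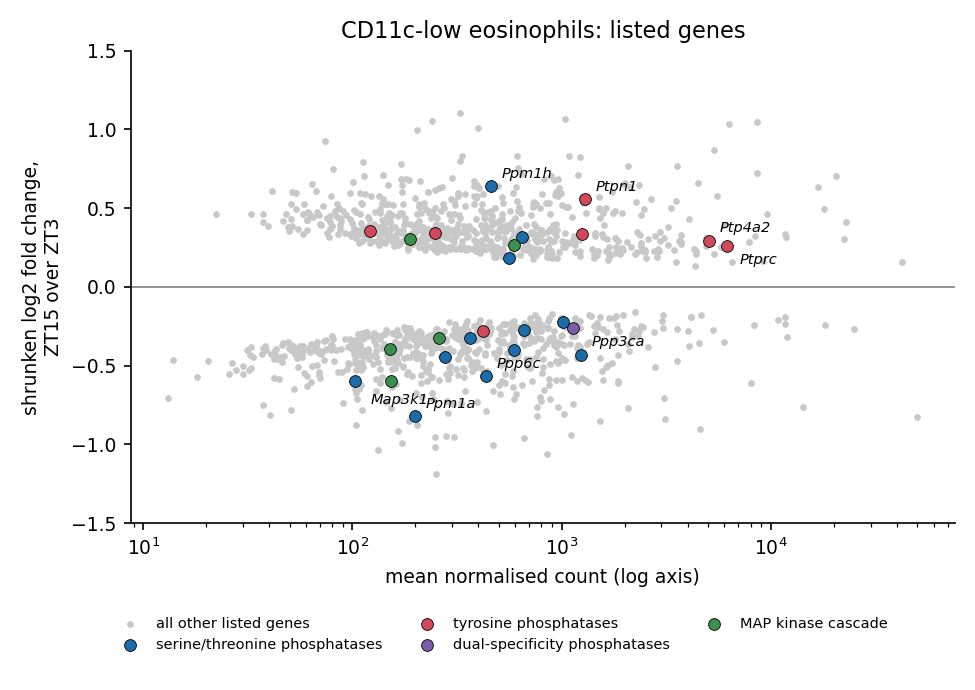
Mean normalised count (horizontal log axis) against the shrunken log2 fold change (vertical axis) of genes listed for CD11c-low cells, with members coloured by class and the rest in grey; 19 genes beyond ±1.5, none of them a member, are not drawn. Ppm1a, Ppm1h and Ptpn1 stand among the larger changes, whereas Ptprc and Ptp4a2 lie at the right with small changes.

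The listed genes of the MAP kinase cascade did not include a MAP kinase itself. None of the 13 annotated genes with a plain Mapk number, which include those of ERK, JNK and p38, and none of the 7 Map2k genes was listed in either table, so their levels were not analysed here. How many of these genes the authors tested is not known, so the counts have no background share and say nothing of their change. Map3k1 (ENSMUSG00000021754.18), a MAP3 kinase upstream of JNK and ERK, fell by 0.60 ± 0.38 in the authors' deposited table (s-value 0.0140, mean normalised count 153). Map3k3, which acts upstream of ERK5 and p38, went the other way with 0.31 ± 0.23 in the authors' deposited table (s-value 0.0313). Map4k2, a germinal-centre kinase that feeds into JNK signalling, fell by 0.33 ± 0.23 (s-value 0.0275) in the authors' deposited table.

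The other 2 cascade genes were Mapkapk2 and Rps6kc1. Mapkapk2, the p38 substrate kinase MK2 that controls the stability of cytokine mRNAs, rose by 0.27 ± 0.16 in the authors' deposited table (s-value 0.0165, mean normalised count 590). Rps6kc1, which encodes an S6 kinase-like protein and is a member by its symbol, fell by 0.39 ± 0.23 in the authors' deposited table (s-value 0.0118, mean normalised count 151). No cascade gene had an s-value under 0.01, whereas 6 of the 12 serine and threonine phosphatases and 4 of the 7 tyrosine phosphatases did; the share over the whole table was 38.7%. Dusp6 (ENSMUSG00000019960.9), a cytosolic phosphatase selective for ERK and itself a target gene of that pathway, fell by 0.26 ± 0.18 in the authors' deposited table (s-value 0.0260, mean normalised count 1133). It was the only listed gene of the 24 annotated Dusp genes, beside 25 of 216 over all members. How many of them the authors tested is not known, so this count has no background share.

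In CD11c-high eosinophils 3 members were lower and 1 was higher at ZT15, in a table where 45.9% of genes were lower and 54.1% higher. Dusp6 was the best supported, at -0.25 ± 0.14 in the authors' deposited table (s-value 0.00965, mean normalised count 886). The s-values are running means within each table and are not compared between subsets. Own false sign rates are derived from them under shrinkage of unknown amount, so these rates do not rank the subsets by support. The rate of Dusp6 was 0.0246, against 0.0684 from the CD11c-low table, and that of Ppp1cb was 0.0362, against 0.0429. For Ppp6c and Ptpn1 the CD11c-high rates were the higher ones. The change of Ppp1cb divided by its SD went the other way, at -1.45 against -1.62 from the CD11c-low table. Ppp1cb fell by 0.32 ± 0.22 in the authors' deposited table (s-value 0.0168, mean normalised count 511). Ppp6c fell by 0.30 ± 0.25 (s-value 0.0365, mean normalised count 417) and Ptpn1 rose by 0.24 ± 0.17 (s-value 0.0282, mean normalised count 762) there, in the authors' deposited table. Of the 4, 1 had an s-value under 0.01 (22.1% of that table) and 2 had an own false sign rate under 0.05 (45.3%). The 95% normal intervals of all 4 included 0, and 11% of that table had an interval that excluded it. For Dusp6 the interval passed 0 narrowly (upper end 0.03), beside an own false sign rate of 0.0246. The 21 members absent from this table were not called or not tested in it, which says nothing of the size of their change.

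Each of the 4 CD11c-high members (100%) was among the 25 CD11c-low ones, of which they were 16%; over all genes the shares were 57.6% and 7.39%. All 4 moved in the same direction in both subsets, as did 98% of the 99 genes that both tables list, so this count is near its background. The subsets share no library. The size of the change was smaller in CD11c-high cells for all 4, as for 81.4% of the shared genes without immunoglobulin segments, and the amount of shrinkage in each table is unknown. The changes of Dusp6 were nearly equal, and CD11c-high minus CD11c-low came to 0.02 with a 95% interval from -0.44 to 0.47 in a two-sided normal test on the authors' deposited tables (adjusted p = 0.972). For Ppp1cb the difference was 0.08, with an interval from -0.56 to 0.73 (adjusted p = 0.970). Ppp6c had a difference of 0.27, from -0.34 to 0.88 (adjusted p = 0.893). Ptpn1 differed most, by -0.32, from -0.79 to 0.15 (adjusted p = 0.636). None of the 4 differences passed, adjusted over all 99 shared genes, of which 3.03% passed, and none had an unadjusted p under 0.05, against 10.1% of the shared genes. The intervals are wide and both estimates are shrunken, so equal responses are not shown.

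**Figure D4:**
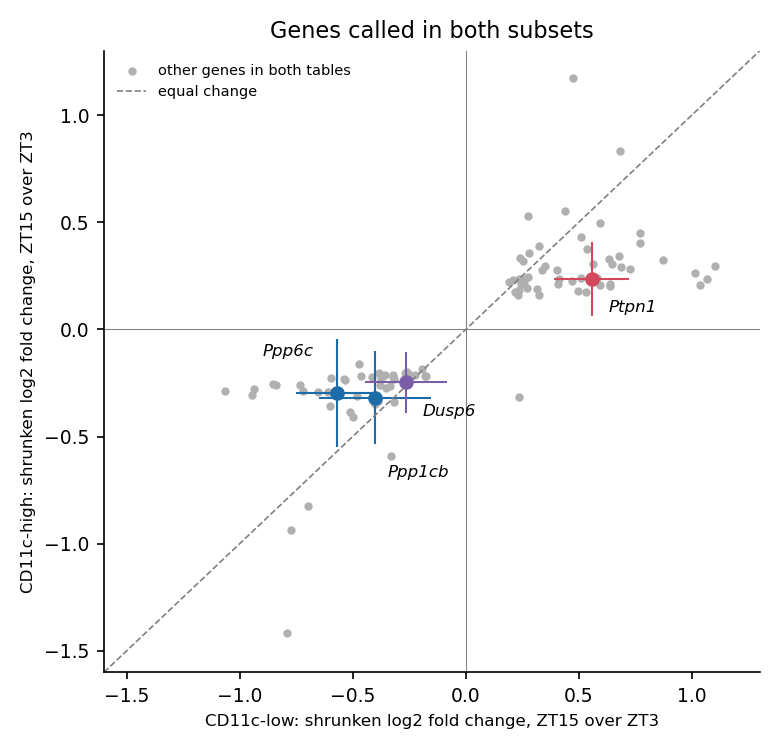
Shrunken log2 fold changes (ZT15 over ZT3) of the 97 genes listed in both tables, immunoglobulin segments left out, in CD11c-low (horizontal) and CD11c-high (vertical) cells; coloured points with bars of 1 posterior SD are Ptpn1 (red), Dusp6 (purple), Ppp6c and Ppp1cb (blue), and the dashed line marks equal change. Dusp6 lies close to the line, while Ptpn1 and Ppp6c lie nearer to 0 in CD11c-high cells.

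The genes around these enzymes were described with 5 pathway lists of 167 genes in all, of which 43 were called in CD11c-low cells, 23 higher and 20 lower, and 6 in CD11c-high cells, 4 higher and 2 lower. The share of higher genes among the 43 was 53.5%, beside 52.2% over the table. How many list genes the authors tested is not known, so 43 of 167 has no background share, and no list was tested against the rest. Among the 51 upstream genes of Ras and Raf signalling 8 rose and 5 fell in CD11c-low cells. Braf, the kinase that starts the ERK cascade, fell by 0.68 ± 0.27 in the authors' deposited table, as did Rap1b, a small GTPase (-0.47 ± 0.19), and the adaptor gene Grb2 (-0.28 ± 0.21). Lamtor2, part of the scaffold that holds MEK1 at late endosomes, rose by 0.53 ± 0.18, and Rasa2 (0.41 ± 0.21) and Rasa3 (0.37 ± 0.24), which switch Ras-type GTPases off, rose too in the authors' deposited table. Nf1, which also switches Ras off, fell by 0.42 ± 0.30 in the authors' deposited table.

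Among 32 nuclear targets, 7 fell and 3 rose, in a table with 47.8% of genes lower; the difference was not tested. Fos, an AP-1 subunit gene, had 0.77 ± 0.14 in CD11c-low and 0.41 ± 0.18 in CD11c-high cells, where no other gene of this list was called (the authors' deposited tables). Elk4, an ETS factor that MAP kinases phosphorylate, rose by 0.39 ± 0.27, and Fosb by 0.27 ± 0.23, in the authors' deposited table. The lower genes included Jund (-0.58 ± 0.31), the CREB-family gene Atf2 (-0.44 ± 0.31), the mRNA-decay gene Zfp36 (-0.41 ± 0.15) and Ier2 (-0.27 ± 0.14) in the authors' deposited table.

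Calcium signalling genes were split 3 and 3 out of 29. Both listed calcineurin genes (Ppp3ca and Ppp3r1) were lower, and other calcineurin genes are not listed. The calmodulin gene Calm2 (0.39 ± 0.17) and the calmodulin-dependent kinase gene Camk1 (0.24 ± 0.16) rose in the authors' deposited table. Homer1, a scaffold of calcium-signalling proteins, fell by 0.70 ± 0.26 in CD11c-low and by 0.83 ± 0.42 in CD11c-high cells, both from the authors' deposited tables. Nfat5, the NFAT relative that calcineurin does not control, fell by 0.31 ± 0.24 in the authors' deposited table. Among 23 inhibitors and partners of protein phosphatases 1 and 2A, Set, which encodes an inhibitor of protein phosphatase 2A, rose in both subsets, by 0.24 ± 0.19 in CD11c-low and 0.33 ± 0.21 in CD11c-high cells, and Strn, a scaffold of that phosphatase, rose by 0.28 ± 0.25 in the former, both from the authors' deposited tables.

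Tyrosine kinases and the inhibitory receptors that recruit tyrosine phosphatases gave 7 higher and 5 lower of 32. Of the Src-family kinase genes, Fgr rose (0.36 ± 0.15) and Lyn fell (-0.31 ± 0.17) in the authors' deposited table. Jak2, whose product is a substrate of the Ptpn1 enzyme, rose by 0.52 ± 0.23, and Jak1 by 0.24 ± 0.18, in the authors' deposited table. Among inhibitory receptors, Cd300lf (0.50 ± 0.12) and Pirb (0.26 ± 0.15) rose, whereas Lilrb4a (-0.54 ± 0.19) and Siglece (-0.31 ± 0.20) fell in the authors' deposited table. No gene for SHP-1 or SHP-2 (Ptpn6 and Ptpn11), the phosphatases these receptors recruit, was listed.

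**Figure D5:**
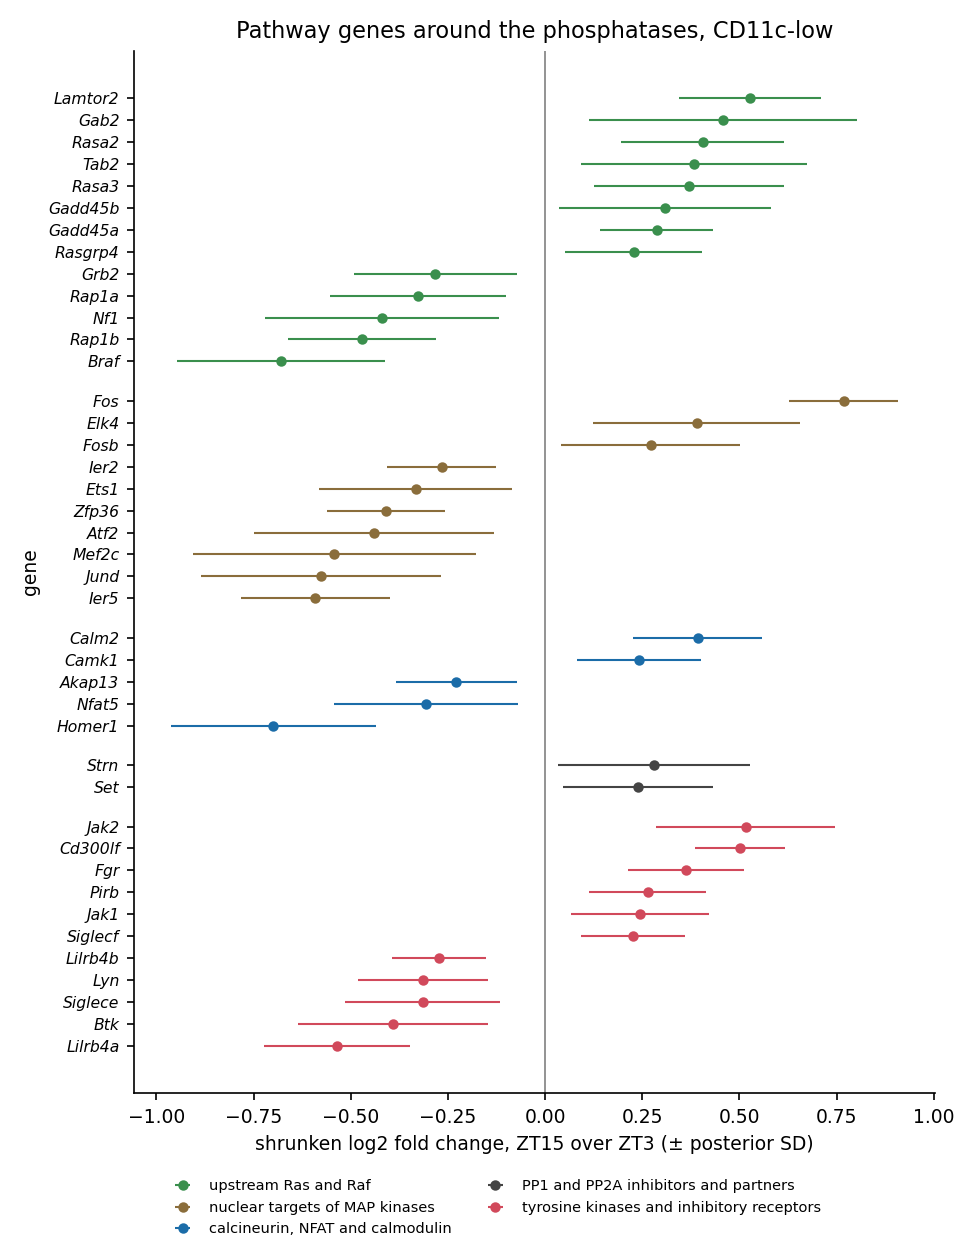
Shrunken log2 fold change (ZT15 over ZT3, horizontal axis) with bars of 1 posterior SD of 41 of the 43 called genes of the 5 pathway lists in CD11c-low cells, coloured by list. Of the nuclear targets 7 of 10 lie to the left of 0 (47.8% of the table does; not tested), and the other lists lie on both sides, apart from Set and Strn, both to the right.

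Some properties of transcripts and samples moved with direction in the same table. Median transcript GC content was 50.7% for genes that rose and 47.7% for genes that fell over the 1269 genes of the CD11c-low table with a value. It was 51.7% for the 3 serine and threonine phosphatases that rose and 48.6% for the 9 that fell, but 47.8% for the 6 tyrosine phosphatases that rose and 58.4% for Ptpn18, which fell. Of 19 eosinophil markers 6 were called in CD11c-low cells (Siglecf, Alox15, Csf2rb and Clec4a4 higher, Adgre1 and Adgre4 lower), with mean normalised counts of 1227 to 4887 in the authors' deposited table. The others, Epx, Prg2 and Ccr3 among them, are not listed. Genes are listed for a change with time, so these 6 do not check the labelled cell type. Among markers of other cells, 2 of 10 for B and plasma cells (Bank1 and Ighm, both higher), 1 of 9 for T and NK cells (Gzma, higher), 2 of 11 for macrophages and dendritic cells (Cd68 higher, Cd74 lower), 1 of 10 for epithelium (Krt18, lower) and none of 7 for mast cells and basophils or of 5 for neutrophils were called, along with 14 immunoglobulin segments. The other-cell markers had mean normalised counts of 1145 (Bank1), 522 (Ighm), 878 (Cd74), 143 (Cd68) and 159 (Krt18) in the authors' deposited table. Gzma had a count of 30.4 and a change of 20.99 ± 3.33 in the same table. At so low a count a change of that size is not a reliable fold, and which libraries carry it is unknown. Summed marker levels per group cannot be given from these tables. The part of GC content and of other cells in the members' changes was not tested.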

How the data were processed

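RNA of 16 libraries was compared by the authors at ZT15 and ZT3 within each CD11c subset. The submitters' processing notes name STAR 2.7.10b, DESeq2 1.38.3 and GRCm39 with no role for each. How reads were counted, with which annotation, and how changes were shrunken is not stated in the labels. Per the file headers, the authors deposited a mean normalised count (a signal averaged over libraries), a log2 fold change with its SD, and an s-value, which is neither a p-value nor a q-value. Direction (PM over AM) follows the tables' names, and no core clock gene is listed to check it. The members, lists and tests were chosen with earlier results of these data known. The deposited values were used as they stand, with no refit.

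SciPy 1.17.1, NumPy 2.4.6 and pandas 2.3.3 in Python 3.11.15 were used to compute counts and medians by class, each gene's own false sign rate (from successive s-values, which are running means), and a two-sided normal test of the difference between subsets with Benjamini-Hochberg adjustment over 99 shared genes, checked on simulated data. That test treats the subsets as independent. The simulated estimates were independent and neither shrunken nor filtered, so that check covers the calculation only and not its use on these values. Every listed member is named; pathway genes are named from those called, of which 2 are counted but not reported here by name. Transcript GC content is the median over protein-coding transcripts in GENCODE M21 (GRCm38), which gave a value for all 25 members. Alternatives were a stricter s-value (0.01), an own false sign rate under 0.05, a mean normalised count of at least 100, a change of at least 2 SDs, catalytic members only, and rescaling for the difference.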

Additional observations from a re-analysis of the deposited data

How the results depend on the processing

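Counts of members depended on the threshold, and no class median changed sign in the alternatives run by class (s-value and 2 SDs) where members were left. These alternatives keep a part of the same called genes and the medians restate the counts, so an unchanged sign tells little of stability. In CD11c-low cells the 11 higher and 14 lower members became 5 and 5 at an s-value under 0.01, 6 and 9 at an own false sign rate under 0.05, and 4 and 3 at 2 posterior SDs or more. In CD11c-high cells the 1 higher and 3 lower became 0 and 1, 0 and 2, and 0 and 0. By class in CD11c-low cells, at an s-value under 0.01 and at 2 SDs respectively, serine and threonine phosphatases had 1 and 1 higher and 5 and 3 lower, and tyrosine phosphatases 4 and 3 higher and 0 and 0 lower. No cascade gene and no dual-specificity phosphatase passed either limit (0 higher and 0 lower), so neither has a median there. Every member had a mean normalised count of at least 100, so that limit removed none and tells nothing of stability. Catalytic members only, run for the totals of each subset and not by class, left 10 higher and 11 lower in CD11c-low cells. All 4 CD11c-high members are catalytic, so the totals there could not change. With CD11c-high changes divided by the median ratio of 0.668, the differences of Dusp6 and Ppp1cb changed sign to -0.11 and -0.075, and 0 members passed under any of the 3 alternatives (adjusted p from 0.640 to 0.996). No paired analysis was possible because no column belongs to a single library, and for the same reason no library could be left out. Depth of single libraries is unknown and limits every value here.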

Other observations

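Several related members changed in opposite directions in the same CD11c-low libraries. Ppm1a and Ppm1h, both metal-dependent phosphatases, had changes of -0.82 ± 0.25 and 0.64 ± 0.20 in the authors' deposited table. Within protein phosphatase 6, the catalytic gene Ppp6c fell (-0.57 ± 0.18) and the regulatory gene Ppp6r3 rose (0.18 ± 0.15) in the authors' deposited table. The MAP3 kinase genes Map3k1 (-0.60 ± 0.38) and Map3k3 (0.31 ± 0.23) and the PEST-type phosphatase genes Ptpn18 (-0.28 ± 0.18) and Ptpn12 (0.36 ± 0.26) were likewise split in the authors' deposited table. These pairs were picked for opposite directions after their values were seen. Related members that moved together, such as Ppp3ca and Ppp3r1 or Ptprc and Ptpre, were left out. The table held 52.2% higher and 47.8% lower genes, so opposite directions are common among its pairs. Own false sign rates were above 0.05 for Ppp6r3 (0.118), Map3k3 (0.0825), Ptpn12 (0.0718) and Ptpn18 (0.0551), and below it for the other genes named. The differences within pairs were not tested, because both genes of a pair come from the same libraries.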
